A study of Homo sapiens with 55 samples.

Results

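Tandem acceptors 3 nucleotides apart are pairs of 3′ splice sites that share a donor and whose introns differ by exactly 3 nucleotides. Of the 110816 splicing events with coordinates in each of the 4 deposited tables, 21126 were of this kind, chosen by position alone: an alternative 3′ splice site event with exactly 2 junctions and intron lengths 3 nucleotides apart. They made up most of the 32660 acceptor pairs of any distance, against 2122 pairs 4 to 9 nucleotides apart and 2773 pairs 10 to 30 nucleotides apart. The 21126 members had 17024 distinct upstream acceptors, because 4102 members repeat an acceptor pair with another donor. The measurement was the usage of the upstream acceptor, in percent of the event, which keeps 3 more nucleotides in the mRNA.

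An acceptor ends in AG, and a tandem of this spacing usually reads NAGNAG, where N is any base. The spliceosome first marks the 3′ end of an intron through the polypyrimidine tract and the AG, bound by U2AF, and through the branch site, bound by the U2 snRNP that contains SF3B1. The AG to be joined is then selected in the second catalytic step, and the base in front of each AG is known to bear on that choice, with C or T favoured over A and G. In a coding exon the choice usually adds or removes 1 amino acid, or replaces residues at the junction, without shifting the reading frame. An inserted TAG that is read in frame is a stop codon.

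RNA came from K562 cells, an established leukaemia line, and from 293T cells, an established line derived from embryonic kidney. In the K562 SF3B1 panel, cells with a knocked-in SF3B1 K700E mutation and SF3B1 WT cells each received guides against SUGP1 (2 libraries), guides against GPATCH8 (2 libraries) or the control sgRenilla against a luciferase gene that human cells lack (1 library). In the K562 SRSF2 panel, cells overexpressing SRSF2 P95H or SRSF2 WT received sgGPATCH8 or sgRenilla, with 3 libraries a group. The K562 U2AF1 panel had the same layout with overexpressed U2AF1 S34F and U2AF1 WT, 3 libraries a group. The 293T cells, labelled WT, received sgSUGP1 (4 libraries), sgGPATCH8 (4 libraries) or sgRenilla (2 libraries). SUGP1 and GPATCH8 encode proteins with a G-patch domain, and the study asked what GPATCH8 loss does to splicing with and without these mutations. Nothing in the labels says that libraries came from separate cultures or that a line is 1 clone, so p-values measure only the spread between these samples. Gene levels were not analysed here, so neither the loss of the targeted genes nor the markers of the cell lines were checked. In such bulk samples a shift within all cells and a shift in the mix of cells cannot be told apart.

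Between 11455 and 13277 members had a value in a library, and the reads behind a value are unknown, so no counting interval could be given. A value in at least 1 library existed for 17035 members, and 8433 members had a value in all 44 libraries. Gene names and sequence came from GENCODE 29 transcripts (GRCh38), matched by exact intron lengths, which named 18847 members in 9993 genes. Of these, 15303 had only the upstream acceptor annotated, 2051 only the downstream acceptor and 1493 both. The inserted triplet could be read for 16796 members, and in 16795 of them it ended in AG. It was GAG in 9853, AAG in 3420, CAG in 2720 and TAG in 802. A whole hexamer could be read for 4518 members, of which 4517 were NAGNAG.

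The mRNA around 4 junctions with both acceptors annotated is shown first, since their balance between the acceptors was measured tightly or differed between groups. Capitals mark the triplet that the upstream acceptor adds.
TOR1AIP1: aagaggctccagCAGtgagtgaagatc
ABCF1: cagcaacagcagCAGcaaaaaaaaaag
TUBGCP4: aggagcacaaagCAGatgctactcagg
COX18: cacattcagaagCAGgtttttctgttc
The 30 bases around the acceptors follow for 8 members whose usage differed with a guide, a mutation or the donor, with the tandem hexamer in capitals.
CDK4: gtaagcgacttttggtgaTAGGAGtctgtg
FOXRED1: ccttaagtcagtttctttCAGGAGcttctg
MFN1: tctaactttatctccctcTAGTAGcataat
COMMD6: atttgattattgttcctcTAGCAGtattaa
ANAPC5: aaactgtacactgcccttCAGCAGtacttc
STRA6: ttctctcgcctggggtcaAAGGAGaagggc
SF3B1: tgttgctgttcttttctgCAGGAGggaaaa
RBM39: ggcgagtttttttcttctCAGGAGgaaaaa

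In K562 cells with sgRenilla, usage followed the annotation for upstream-only tandems and less closely for the rest. Over the 12 sgRenilla libraries of the SRSF2 and U2AF1 panels, the 8433 members with a value in all 44 libraries had a median usage of 96.8% (quartiles 82.6% and 99.2%). The 6419 members with only the upstream acceptor annotated had a median of 98.2%, and the 535 with only the downstream acceptor annotated had a median of 12.8%. The 893 members with both acceptors annotated had a median of 71.2%, with quartiles 41.4% and 89.1%. Usage lay between 10% and 90% in 72.5% of these 893 and in 51.8% of the 535 downstream-only members, against 20.6% of the upstream-only members. The same medians in the 293T sgRenilla libraries were 98.0%, 14.0% and 72.0%.

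**Figure D1:**
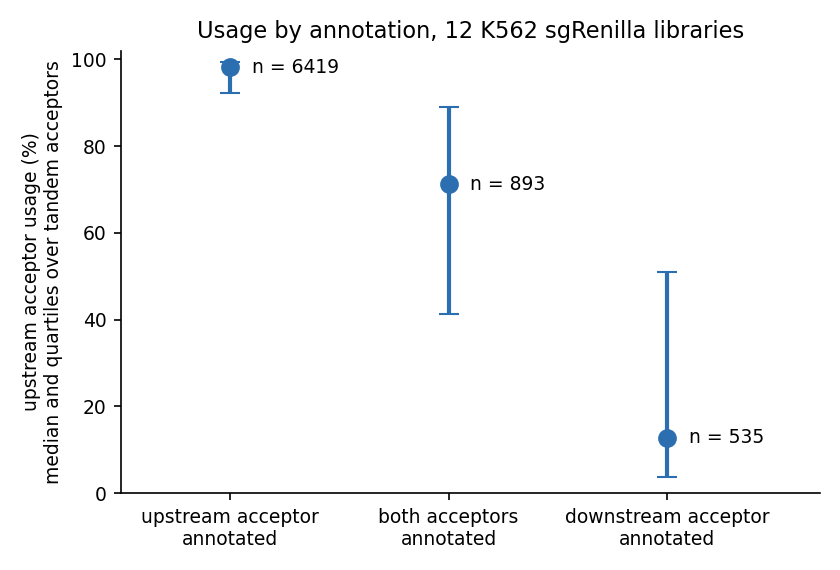
Median usage of the upstream acceptor (percent, vertical axis) over tandem acceptors with a value in all 44 libraries, by which acceptor is annotated; bars span the quartiles over members, from the mean of 12 K562 sgRenilla libraries. Members with both acceptors annotated lie between the others, with a median of 71.2% and the widest quartiles.

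Usage differed with the base in front of the downstream AG and, among hexamers, also with that in front of the upstream AG. Among the 893 members with both acceptors annotated, the median was 61.9% where the inserted triplet was CAG (611 members), 70.7% for TAG (88), 90.6% for AAG (147) and 98.3% for GAG (47). The inserted triplet ends at the downstream AG, so its first base stands in front of the downstream acceptor. Among hexamers that differ in that base, CAGCAG tandems had a median of 68.7% (124 members) and CAGAAG tandems 95.4% (24). With A in place of C in front of the upstream AG, AAGCAG tandems had 19.7% (27) and AAGAAG tandems 61.6% (5). Among the members with only the downstream acceptor annotated, GAGCAG tandems had a median of 7.0% (69 members). These medians are descriptions over members, which differ in much else than the hexamer.

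Usage also differed with the place of the junction. Among upstream-only members, the median was 98.8% where the junction fell between codons (2763 members), 98.4% and 98.2% where it split a codon after its first or second base, 91.3% in 5′ UTRs (678 members), 89.0% in noncoding transcripts (313) and 83.6% in 3′ UTRs (151). The median SD between the 12 libraries was larger outside coding sequence, at 4.58 points in 5′ UTRs and 7.86 points in 3′ UTRs, against 0.674 points between codons. Introns were longer where usage lay between 10% and 90% (median 1838 nucleotides, 2517 members) than where it was above 90% (1352 nucleotides, 5609 members) or below 10% (948 nucleotides, 307 members).

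Members with missing values had a different distribution. Upstream-only members with a GAG triplet had a median mean usage of 98.5% and a median SD of 0.93 points where all 44 libraries had a value (4476 members). Where 1 to 10 libraries had a value, the median was 68.1% and the median SD 12.9 points (1401 members), and where 41 to 43 libraries had one it was 78.0% and 13.6 points (456 members). Members with both acceptors annotated had a median SD of 14.9 points with 41 to 43 values (58 members) and of 3.91 points with 44 (893 members). The part that missing values play in the results was not tested.

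**Figure D2:**
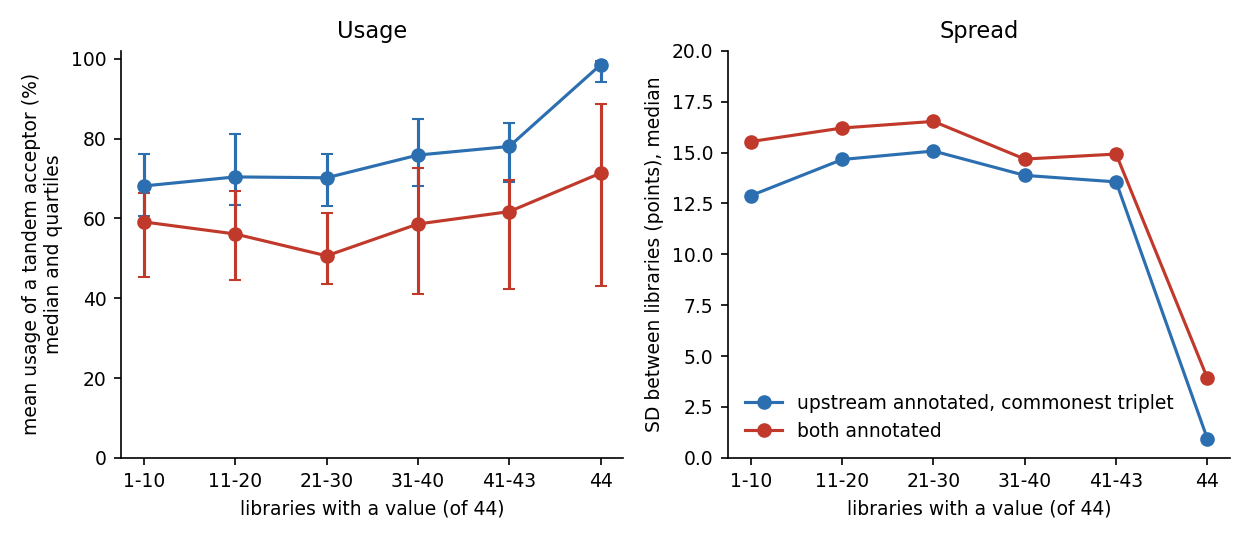
Mean usage (left, percent, median and quartiles over members) and SD between libraries (right, percentage points, median over members) against the number of libraries with a value, for upstream-only members with the commonest triplet (blue) and members with both acceptors annotated (red). Spread lies above 12 points in every bin with a missing value and at 0.93 and 3.91 points where all 44 libraries have one.

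The same acceptor pair gave different usage with different donors. Among members with a value in all 44 libraries, 961 acceptor pairs were read with at least 2 donors (2285 members). The mean usage of a pair's members spanned a median of 13.0 points (quartiles 5.67 and 23.2), and 302 pairs (31.4%) spanned at least 20 points. The pair's highest member had a median usage of 98.3% and a median SD of 0.934 points between libraries. Its lowest member had a median usage of 80.4% and a median SD of 8.42 points.

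SF3B1 itself, the U2 snRNP subunit mutated in K700E cells, holds such a pair at chr2:198283309-198283312 (hg19, minus strand, CAGGAG). From the donor at 198285152 its upstream acceptor was used at 99% to 100% in all 44 libraries. From the donor at 198283620, in a transcript where the junction lies in the 3′ UTR, usage ran from 36% to 94%. RBM39, a U2AF-like splicing factor, has 3 donors for its CAGGAG pair at chr20:34320054-34320057 (hg19, minus strand). Its usage was 99.5% to 100% from the donor at 34326890, 29% to 90% from the donor at 34322108 and 20% to 93% from the donor at 34324435. SMARCA4, the ATPase of a chromatin remodelling complex, had a 5′ UTR pair at chr19:11094800-11094803 (hg19, plus strand) with 5 donors, and its median usage over the K562 libraries was 99.0% from the donor at 11071850 and 45.5% to 60.5% from 4 others.

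Several tandems with both acceptors annotated held an intermediate balance in every library. Over all 893 members with both acceptors annotated and a value in all 44 libraries, intermediate or not, the median SD between libraries was 3.91 points. Of the 893, 550 (61.6%) had an SD under 5 points and 108 an SD over 10. The 646 with intermediate usage (10% to 90%) had a median SD of 5.16 points. In ABCF1, a ribosome-associated ATPase, the CAG between codons at chr6:30545850-30545853 (hg19, plus strand) was kept in 49.9% ± 1.98 of transcripts (SD, n = 12 K562 sgRenilla libraries). It ran from 47% to 56% over all K562 libraries and from 54% to 58% in 293T. In SMARCA4, the CAG at chr19:11168931-11168934 (hg19, plus strand) was kept at 65% to 72% in 34 K562 libraries and at 70% to 76% in 10 libraries of 293T. IGF1R, the receptor in which an acceptor tandem of this kind is long known, was looser: its CAG at chr15:99472787-99472790 ran from 43% to 92% in K562 and from 56% to 74% in 293T.

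Some tandems differed widely between the cell lines. Usage in the 6 K562 WT sgRenilla libraries (SRSF2 WT and U2AF1 WT) did not overlap the 2 libraries of 293T sgRenilla for 1171 of 9583 members (12.2%), of which 665 were higher and 506 lower in K562. The share over all events was 18.0%. Means lay at least 20 points apart as well for 253 members (2.64%), against 3.87% of all events. No test was made, because 293T had 2 such libraries, and cell line and panel cannot be told apart.

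TOR1AIP1, a protein of the inner nuclear membrane, had the widest gap. Its CAG at chr1:179858445-179858448 (hg19, plus strand) was kept at 25.7% ± 2.50 in K562 WT sgRenilla libraries (SD, n = 6), against 90% and 94% in 293T sgRenilla libraries. Over all 34 K562 libraries it ran from 19.5% to 33%, and over the 10 libraries of 293T from 87% to 94%, so the lines stayed apart under every guide and mutation measured. MORF4L1, a chromatin protein, averaged 33.0% in the 6 K562 libraries, against 69% and 75% in 293T. RASGRP3, an exchange factor for Ras proteins, averaged 82.2% in K562, against 30% and 55% in 293T, although 293T libraries with other guides ran from 43% to 94%. HSD17B1, an oestrogen-forming enzyme, averaged 19.5% in K562, against 62% and 71% in 293T. Of the 893 members with both acceptors annotated, 125 (14.0%) did not overlap between the lines, 46 higher and 79 lower in K562.

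The comparisons of mutants and guides were fitted with limma over all events with a value in every library of a panel, and a member was called where its Benjamini-Hochberg adjusted p was under 0.05 and its usage differed by at least 5 points. The share of tandem acceptors called lay below the share of all tested events in each comparison where any was called. Across the 20 comparisons the called members were 0% to 2.77% of those tested. The difference between these shares was not tested. The median size of the differences was not smaller over members than over all events in any comparison, at 2.75 against 2.33 points for K700E averaged. At an unadjusted p under 0.05 (limma), the member share lay above that of all events in some comparisons and below it in others.

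**Figure D3:**
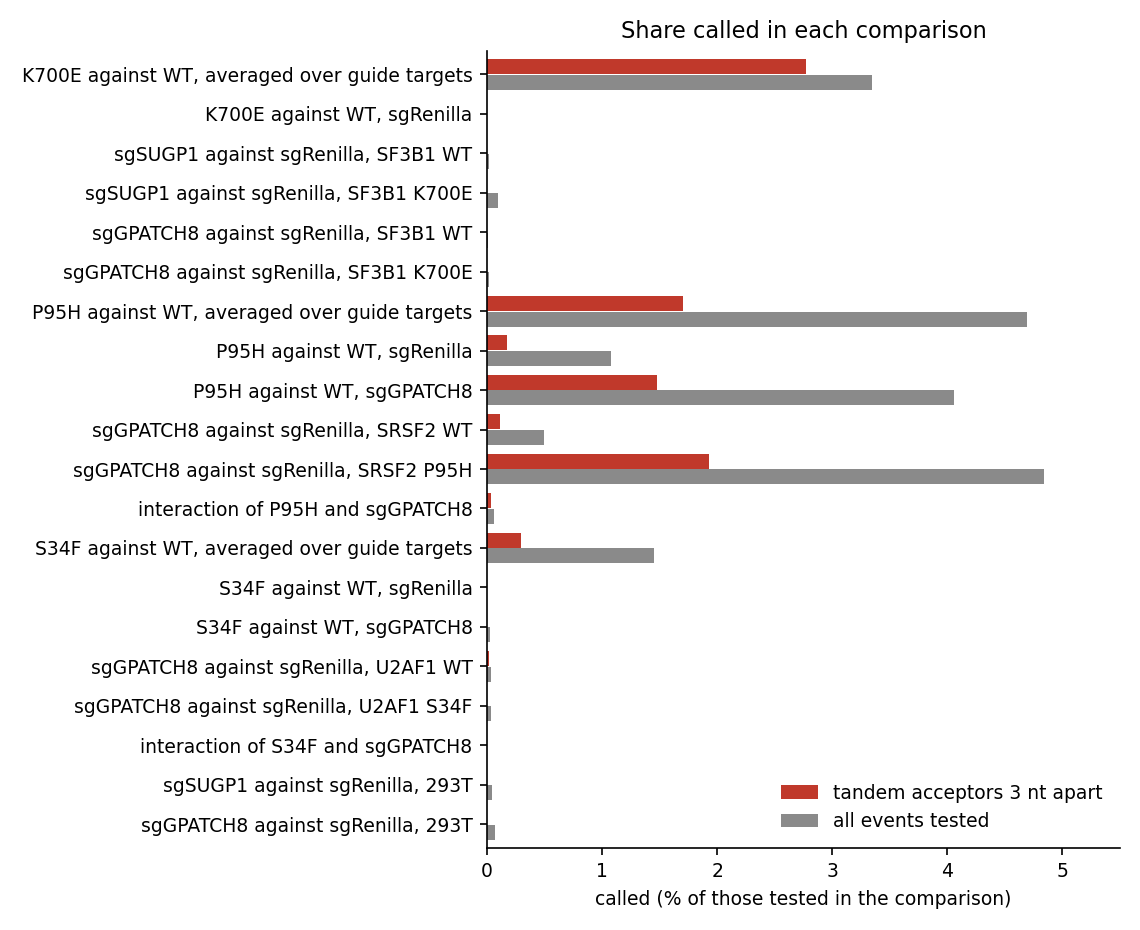
Share of tested events that were called in each of the 20 comparisons (percent, horizontal axis), for tandem acceptors 3 nucleotides apart (red) and for all tested events (grey). The red bar is the shorter of the pair wherever either share exceeds 0.1%, with the highest red bar at 2.77% for K700E against WT.

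In SF3B1 K700E cells, averaged over the guide targets, 182 of 6560 tested members were called against WT cells (2.77%), 113 higher and 69 lower, while 3.35% of all tested events were called. The called differences ran from 5.0 to 32.9 points, with a median of 13.9, and 145 were at pairs with only the upstream acceptor annotated, 7 at pairs with both annotated. Usage in the 5 K700E libraries did not overlap that in the 5 WT libraries for 215 members (3.28%), against 6.04% of all events. Acceptor pairs 10 to 30 nucleotides apart were called in 87 of 1283 cases (6.78%, 73 higher and 14 lower), and pairs 4 to 9 nucleotides apart in 17 of 789 (2.15%). The count fell to between 21 and 57 when any of the 8 libraries with a partner was left out. With the fractions of the first or second sequencing run alone it was 11 or 28, and in the sgRenilla pair alone, with 1 library a group, limma called none of the members or of all events (0%), with 787 of 6560 members at an unadjusted p under 0.05, beside 13.0% of all events.

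STRA6, a membrane receptor for retinol-binding protein, had the largest called K700E difference. At its 5′ UTR AAGGAG tandem (chr15:74494620-74494623, hg19, minus strand), usage was 93.5% in K700E sgRenilla, 88% and 77.5% in K700E sgGPATCH8, and 83% and 90.5% in K700E sgSUGP1. In WT cells it was 43.5% with sgRenilla, 62% and 63.5% with sgGPATCH8, and 51% and 65% with sgSUGP1. All K700E libraries lay above all WT libraries, by 32.9 points on average (log2 change of the ratio 2.58, SE 0.33, adjusted p = 0.0214, limma). In the other panels STRA6 usage ranged from 32% to 97% with values missing in 4 libraries, so the K700E levels lie within the spread seen elsewhere. The STRA6 call was kept in 6 of 14 alternative settings.

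CYP17A1, a steroid-making enzyme with a GAGCAG tandem, fell by 28.3 points (adjusted p = 0.0139, limma). Its usage was 3.5% to 4% in all 5 K700E libraries, against 16.5% to 42% in WT, and only 22 of 44 libraries had a value. SLC3A2, a subunit of amino acid transporters, fell by 31.5 points (adjusted p = 0.0292, limma), with usage of 31% to 78% in K700E libraries, against 73.5% to 90% in WT, which overlap. The CYP17A1 call was kept in 11 of 15 alternative settings and the SLC3A2 call in 6 of 16.

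Among members with both acceptors annotated and a value in all 44 libraries, K700E called 5 of 793, beside 3.35% of all tested events. Usage was lower in K700E at each of the 5. Without the need for a value in all 44 libraries 7 were called, and the direction of the added ones is not given here. COX18, which inserts a cytochrome oxidase subunit into the mitochondrial membrane, kept the CAG in 28.5% (sgRenilla), 27.5% and 26.5% (sgGPATCH8), and 14.5% and 23% (sgSUGP1) of transcripts in K700E cells. WT cells kept it in 43.5%, in 39.5% and 40%, and in 33% and 33% under the same guides. The groups did not overlap, and the difference was 14.0 points (adjusted p = 0.0483, limma). NCK2, an adaptor of tyrosine kinase signalling, had 52% to 78.5% in K700E, against 88% to 93% in WT (adjusted p = 0.036), and the kinase MATK had 87% to 94.5% in K700E, against 95.5% to 99% in WT (adjusted p = 0.0128). PER3, a circadian clock protein, had 36% to 48.5% in K700E, against 47% to 59.5% in WT (adjusted p = 0.0435), and CORO6, a coronin, had 13.5% to 22.5% in K700E, against 17% to 42.5% in WT (adjusted p = 0.0479); both pairs of ranges overlap. The MATK call was kept in 13 of 16 alternative settings, those of COX18 and CORO6 in 3 of 16 each, that of PER3 in 5 of 16 and that of NCK2 in 4 of 14.

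The SF3B1, RBM39 and TRA2A tandems were also called with 1 donor each in K700E. SF3B1 usage from the donor at 198283620 was 79.5% to 89% in K700E libraries, against 42.5% to 89.5% in WT libraries (21.1 points higher, adjusted p = 0.049, limma). RBM39 usage from the donor at 34322108 was 80.5% to 88.5% in K700E, against 71.5% to 79.5% in WT, with no overlap (9.92 points higher, adjusted p = 0.049). TRA2A, an SR-like splicing factor, had 94% to 97.5% from its 5′ UTR donor at 23570800 in K700E, against 81% to 95.5% in WT (8.67 points higher, adjusted p = 0.0337). In the SRSF2 and U2AF1 panels usage of the RBM39 pair ran from 29% to 75%, below the K700E values, and in 293T from 79% to 90%. The calls of SF3B1, RBM39 and TRA2A were kept in 3, 2 and 4 of 16 alternative settings.

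Loss of SUGP1 was called at no tandem acceptor when the members valued in every library of a panel were tested, although other settings gave calls. With the second sequencing run alone, 35 members were called in K700E cells, and with members valued in all 44 libraries, a setting chosen after seeing the data, 1 was called in SF3B1 WT and 4 in K700E cells. SUGP1 works with SF3B1 at the branch site, and SF3B1 mutations are known to weaken their contact. In SF3B1 WT cells limma called none of 6560 members (0.0197% of all events were called), with 606 members at an unadjusted p under 0.05 (9.24%, against 8.63% of all events). In K700E cells it called none (0.0944% of all events), with 602 members under 0.05 (9.18%, against 11.7% of all events). In 293T cells it called none of 5753 members (0.0452% of all events), with 453 members under 0.05 (7.87%, against 7.53% of all events). In 293T, by contrast, 11 of 1118 pairs 10 to 30 nucleotides apart were called, all higher with sgSUGP1. The K562 SF3B1 groups had 2 libraries against 1 here. With members valued in all 44 libraries, the share of members called lay below that of all events in both K562 backgrounds. For the second run alone the share over all events is not given here.

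Single tandems had differences of the same sign in both lines, none of which passed the adjusted threshold. CDK4, the cyclin-dependent kinase of the G1 phase, has a 5′ UTR TAGGAG tandem at chr12:58145532-58145535 (hg19, minus strand). Its usage was 75.5% and 82.5% in K700E sgSUGP1, 40% and 30.5% in K700E sgGPATCH8, and 47.5% in K700E sgRenilla. In SF3B1 WT cells it was 64% and 60.5% with sgSUGP1, 19% and 19.5% with sgGPATCH8, and 21% with sgRenilla. In 293T it was 55%, 30%, 38% and 42% with sgSUGP1, 10%, 12%, 13% and 6% with sgGPATCH8, and 10% and 5% with sgRenilla. Every sgSUGP1 library lay above every sgGPATCH8 and sgRenilla library of its own background.

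For CDK4 the sgSUGP1 minus sgRenilla difference was 41.2 points in SF3B1 WT cells (unadjusted p = 0.000343, adjusted p = 0.151, limma), 31.5 points in K700E cells (adjusted p = 0.125) and 33.8 points in 293T (adjusted p = 0.147). CDK4 usage was also 19.8 points higher in K700E than in WT cells averaged over the guide targets (log2 change 1.35, SE 0.20, adjusted p = 0.0278, limma), although the K700E range of 30.5% to 82.5% overlaps the WT range of 19% to 64%. That call was kept in 5 of 16 alternative settings. The SRSF2 and U2AF1 panels, which had no SUGP1 guide, stayed between 5% and 24%.

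FOXRED1, a factor for the assembly of mitochondrial complex I, has a CAGGAG tandem in a noncoding transcript at chr11:126143211-126143214 (hg19, plus strand). In 293T its usage was 97%, 98%, 98% and 98% with sgSUGP1, 27%, 57%, 67% and 19% with sgGPATCH8, and 64% and 63% with sgRenilla. SF3B1 WT cells had 95.5% and 99% with sgSUGP1, 44% and 74.5% with sgGPATCH8, and 59.5% with sgRenilla. In K700E cells it was 94% to 99% under all guides. The sgSUGP1 difference was 34.2 points in 293T (adjusted p = 0.276, limma) and 37.8 points in SF3B1 WT cells (adjusted p = 0.337), and 2.5 points in K700E cells (adjusted p = 0.756). FOXRED1 was high wherever SUGP1 was targeted or SF3B1 was mutated, and 12% to 53% in the SRSF2 and U2AF1 panels.

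MFN1, a mitochondrial fusion protein with a TAGTAG tandem in its 5′ UTR (chr3:179066633-179066636, hg19, plus strand), had lower values with sgSUGP1. In 293T its usage was 77%, 81%, 70% and 77% with sgSUGP1, 92%, 82%, 87% and 87% with sgGPATCH8, and 87% and 93% with sgRenilla. In SF3B1 WT cells it was 77% and 71.5% with sgSUGP1, 85% and 84% with sgGPATCH8, and 87.5% with sgRenilla, and in K700E cells it was 73% to 76% under all guides. The sgSUGP1 difference was -13.8 points in 293T (adjusted p = 0.47, limma) and -13.2 points in SF3B1 WT cells (adjusted p = 0.351). PES1, a ribosome biogenesis factor with a CAGGAG tandem, had 98%, 96%, 97% and 97% with sgSUGP1 in 293T, against 78% and 85% with sgRenilla, and 97% and 97%, against 89.5%, in SF3B1 WT cells.

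**Figure D4:**
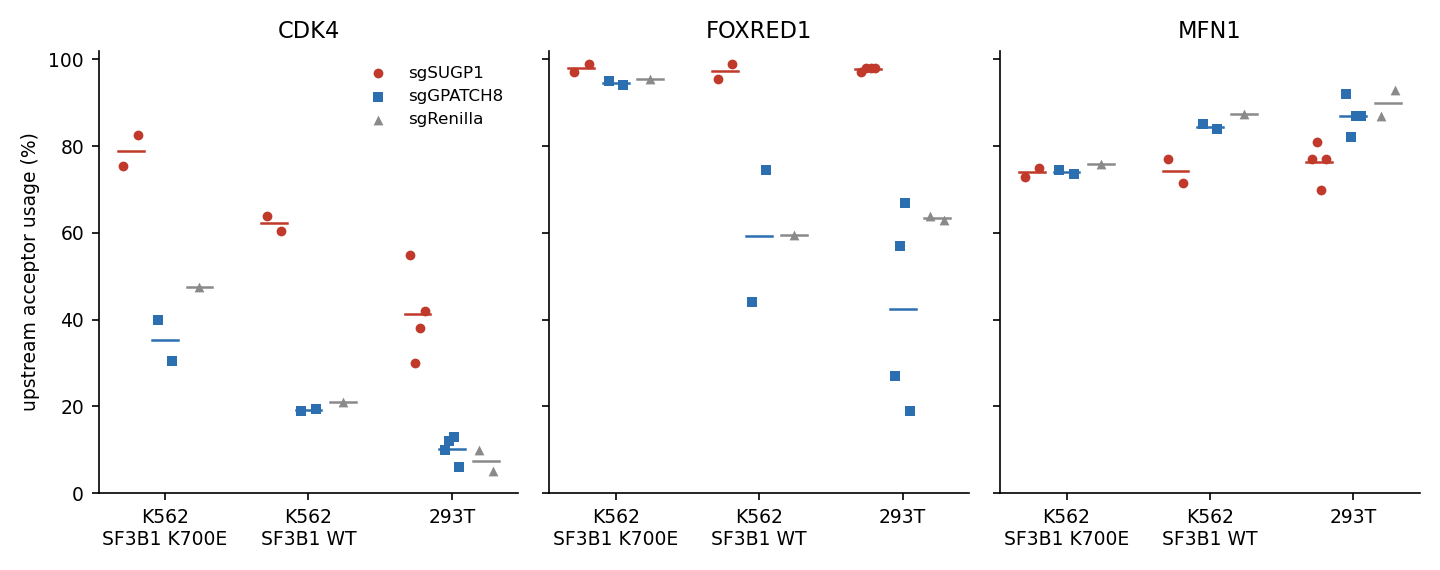
Usage of the upstream acceptor (percent, vertical axis) of CDK4, FOXRED1 and MFN1 in SF3B1 K700E, SF3B1 WT and 293T cells; each point is a library and each bar a group mean, with sgSUGP1 in red, sgGPATCH8 in blue and sgRenilla in grey. The sgSUGP1 libraries of CDK4 lie above all others of their background, and FOXRED1 and MFN1 in K700E cells lie near the sgSUGP1 level under every guide.

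These tandems were chosen after their values were seen. Of members tested in both, 91 had an unadjusted p under 0.01 for SUGP1 loss in SF3B1 WT cells and 88 in 293T; 8 were in both (8.79% and 9.09%), all with the same sign, namely CDK4, FOXRED1, HYI, MFN1, PES1, ULK3, USP11 and an unnamed pair on chromosome 12. Over all events the shared part was 20.9% and 22.8%. At an unadjusted p under 0.05, SF3B1 WT cells and 293T shared 40 members, 25 with the same sign. K700E cells and 293T shared 2 members under 0.01, both with the same sign, and 36 under 0.05, 15 with the same sign. In the 3 SUGP1 comparisons, which share no library, 1099 of 4274 members had the same sign throughout (25.7%), against 28.9% of all events. With an unadjusted p under 0.05 in at least 2 of them as well there were 30 (0.702%), against 1.70% of all events. Of these 30, 18 were higher and 12 lower.

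Calls for loss of GPATCH8 were counted in each of 7 backgrounds. In the SF3B1 panel, where 2 libraries were set against 1 and few events of any kind were called (3 and 7 of 50823), limma called none of 6560 members in WT cells (0.00590% of all events were called), with 630 of the 6560 at an unadjusted p under 0.05, beside 9.46% of all events, and none in K700E cells (0.0138%), with 652 under 0.05 (9.94%, against 10.5%). In SRSF2 WT cells it called 6 of 5279 members, 2 higher and 4 lower (0.114%, against 0.491% of all events), and between 0 and 4 when a library was left out. In U2AF1 WT cells it called 1 of 5152 (0.0194%, against 0.0322%), in U2AF1 S34F cells none (0.0345%), with 361 under 0.05 (7.01%, against 6.99%), and in 293T none of 5753 (0.0731%), with 459 under 0.05 (7.98%, against 8.34%). In SRSF2 P95H cells it called 102 of 5279, 32 higher and 70 lower (1.93%, against 4.84% of all events), and 41 to 58 when a library was left out. With members valued in all 44 libraries it called 61 there, 28 higher and 33 lower (1.69%, against 6.14% of all events). In the same P95H comparison, 733 members (13.9%) did not overlap between sgGPATCH8 and sgRenilla, against 22.3% of all events.

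UAP1, which makes UDP-N-acetylglucosamine, had lower values with GPATCH8 guides in the K562 panels. Its inserted triplet was kept in 54%, 53% and 58% of transcripts with sgGPATCH8 in P95H cells, against 73%, 74% and 77% with sgRenilla. In SRSF2 WT cells it was kept in 53%, 70% and 67%, against 78%, 72% and 81%. In SF3B1 WT cells the values were 54% and 34.5% with sgGPATCH8, against 79% with sgRenilla, and in K700E cells 57.5% and 46.5%, against 79.5%. These 4 backgrounds showed no overlap between the guides. In U2AF1 WT cells the values were 47%, 74% and 56%, against 79%, 79% and 74%, and in S34F cells 50%, 71% and 66%, against 60%, 75% and 72%, with the guides touching or overlapping. In 293T cells UAP1 had 79%, 79%, 76% and 76% with sgGPATCH8, against 80% and 77% with sgRenilla, which overlap. It was called in P95H cells (19.7 points lower, log2 change -1.24, SE 0.28, adjusted p = 0.032, limma), a call kept in 6 of 12 alternative settings.

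TUBGCP4, a subunit of the gamma-tubulin complex, had higher usage of its CAG (chr15:43690236-43690239, hg19, plus strand). It was 39%, 39% and 37% with sgGPATCH8 in P95H cells, against 27%, 30% and 31% with sgRenilla (9.0 points higher, adjusted p = 0.0431, limma). In U2AF1 S34F cells it was 42%, 36% and 36%, against 27%, 25% and 32%, and in SRSF2 WT cells 34%, 35% and 40%, against 32%, 30% and 31%. The groups did not overlap in these 3 backgrounds, and the difference in SF3B1 WT, K700E and 293T cells was under 3 points. In U2AF1 WT cells a sgRenilla library reached 39%, as high as the sgGPATCH8 values in P95H cells. This was the highest of the 12 sgRenilla libraries of the SRSF2 and U2AF1 panels. The P95H call was kept in 3 of 12 alternative settings.

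TROAP, a protein of the mitotic spindle, and MYL6, a myosin light chain, had higher means with sgGPATCH8 in each of the 7 comparisons without being called in any. TROAP (AAGGAG, chr12:49721010-49721013) had 91%, 85%, 81% and 87% with sgGPATCH8 in 293T, against 59% and 35% with sgRenilla. SF3B1 WT cells had 91% and 91%, against 51.5%, and in K700E cells 73% and 90.5%, against 31%. In SRSF2 WT cells the groups overlapped, with 92%, 83% and 93%, against 81%, 67% and 96%. MYL6, in the 3′ UTR of a transcript at chr12:56556639-56556642, had 22%, 24%, 25% and 15% with sgGPATCH8 in 293T, against 6% and 10% with sgRenilla, while sgSUGP1 libraries had 6% to 9%. With SF3B1 WT, MYL6 had 26.5% and 21% with sgGPATCH8, against 9% with sgRenilla.

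**Figure D5:**
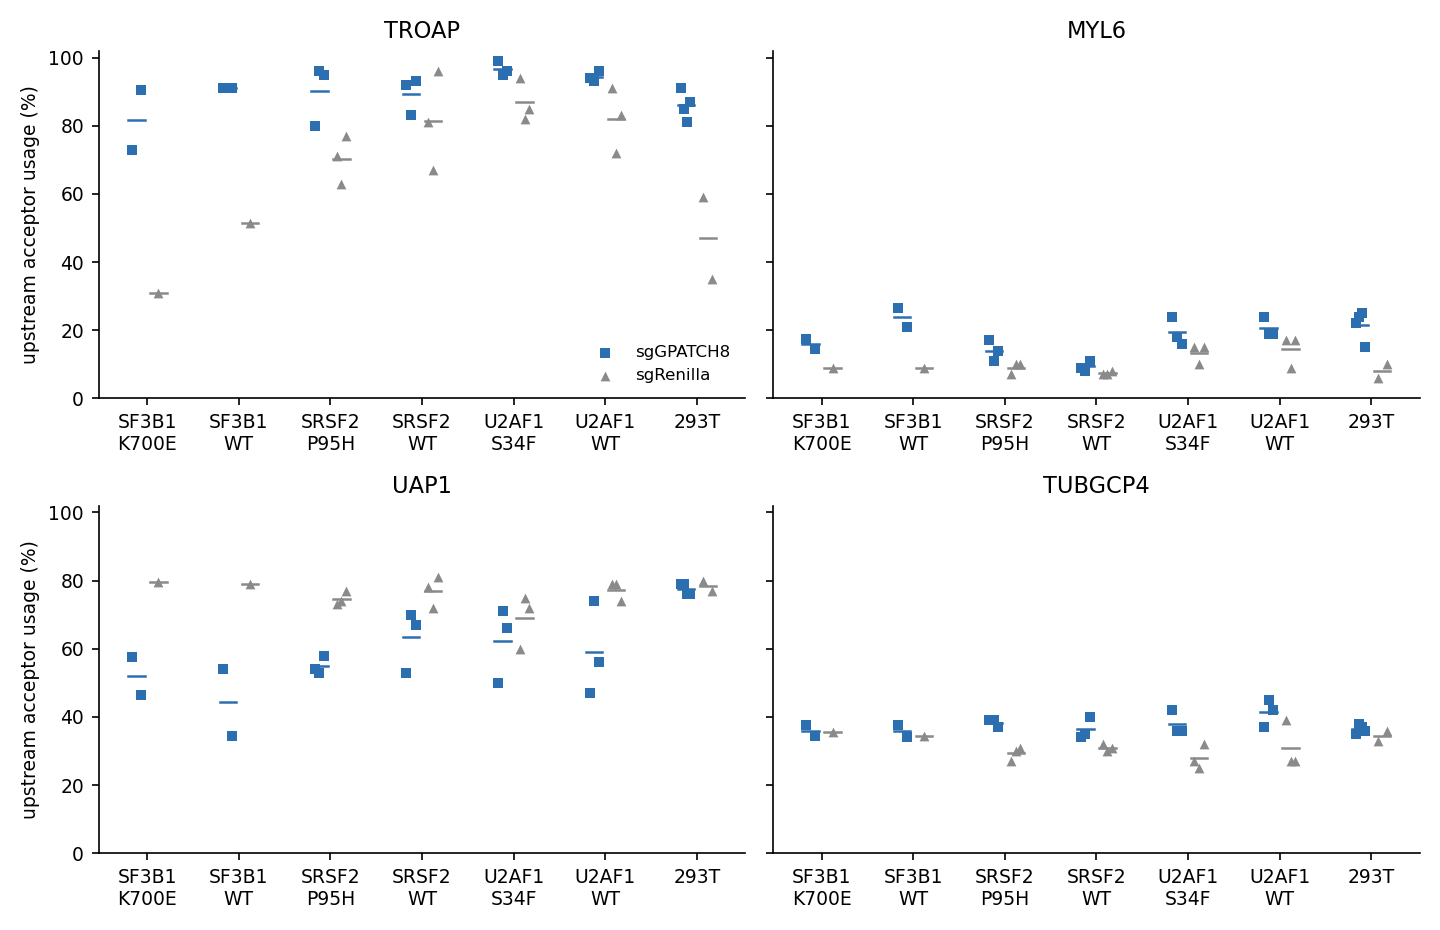
Usage of the upstream acceptor (percent, vertical axis) of TROAP, MYL6, UAP1 and TUBGCP4 in 7 backgrounds; each point is a library and each bar a group mean, with sgGPATCH8 in blue and sgRenilla in grey. Group means lie on the same side of each other in all 7 backgrounds for each gene, by as little as 1 point or less in some.

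These 4 were chosen after their values were seen. Over the 7 GPATCH8 comparisons, which share no library, 93 of 3296 members had the same sign throughout (2.82%), against 5.51% of all events. Of these, 7 had an unadjusted p under 0.05 in at least 3 comparisons (0.212%, against 1.96% of all events): MOK, MYL6, TRA2A, TROAP and TUBGCP4 were higher and BAZ2B and UAP1 lower. The TRA2A member was the one with the donor at 23570800, with 97%, 95%, 98% and 93% in 293T sgGPATCH8 libraries, against 85% and 90% with sgRenilla. MOK, a kinase with both acceptors annotated, had 79%, 73% and 71% with sgGPATCH8 in P95H cells, against 66%, 54% and 59% with sgRenilla. BAZ2B, a bromodomain protein, had 79% and 77.5% with sgGPATCH8 in K700E cells, against 90.5% with sgRenilla.

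Some GPATCH8 differences in P95H cells were large. SPTB, the beta-spectrin of red cells, had 54%, 50% and 53% with sgGPATCH8 in P95H cells, against 94%, 95% and 93% with sgRenilla (41.7 points lower, adjusted p = 5.18e-05, limma). MBD4, a DNA repair glycosylase, had 84%, 85% and 96%, against 39%, 35% and 54% (adjusted p = 0.0368). Over the 12 K562 sgRenilla libraries of the SRSF2 and U2AF1 panels, MBD4 ran from 35% to 97%, with a median of 80%. Its mean in 293T sgRenilla libraries was 86.5%. The sgGPATCH8 values in P95H cells thus lie within the range of sgRenilla libraries elsewhere. SPTB was also called in SRSF2 WT cells, with 88%, 92% and 92%, against 96%, 97% and 97% (adjusted p = 0.0322), a call kept in 2 of 11 alternative settings. SPTB had values in 31 of 44 libraries and ran from 60.5% to 71.5% in the SF3B1 panel. ORC3, of the origin recognition complex, had 44%, 50% and 46%, against 34%, 37% and 37% (adjusted p = 0.0406), and TCF4, a transcription factor, had 97%, 95% and 97%, against 88%, 89% and 91% (adjusted p = 0.0104), both at CAG triplets with both acceptors annotated. In SRSF2 WT cells the only call with both acceptors annotated and a value in all 44 libraries was ZBED1, a zinc finger protein. It had 64%, 64% and 61%, against 74%, 81% and 78% (14.7 points lower, adjusted p = 0.0322, limma). The calls of MBD4, ORC3, TCF4 and ZBED1 were kept in 4, 5, 11 and 6 of 12 alternative settings.

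In U2AF1 WT cells the called member was ADGRV1, an adhesion receptor. Its AAG junction at chr5:90149101-90149104 was used at 47%, 51% and 53% with sgGPATCH8, against 95%, 97% and 95% with sgRenilla (45.3 points lower, log2 change -4.19, SE 0.35, adjusted p = 0.00327, limma). In S34F cells it was 86%, 78% and 80%, against 91%, 84% and 82%, and in the other 3 panels it was 84% to 99% in every library. The call was kept in all 12 alternative settings, and the 3 libraries concerned stand alone among the 44.

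SRSF2 P95H, which changes the RNA preference of an SR protein that binds exons, gave calls in both directions, with a split that moved with the members tested. Averaged over the guide targets, 90 of 5279 members were called (1.70%, against 4.69% of all events), 26 higher and 64 lower, with a median difference of 13.5 points, and 51 to 76 when a library was left out. With members valued in all 44 libraries, a setting chosen after seeing the data, 59 were called, 24 higher and 35 lower (1.63%, against 5.92% of all events). With sgRenilla alone 9 were called, 1 higher and 8 lower (0.170%, against 1.08%), and 1 to 6 when a library was left out. With sgGPATCH8 alone 78 were called, 18 higher and 60 lower (1.48%, against 4.06%), and 22 to 50 when a library was left out. These 2 comparisons share no library: none of the 9 was called under sgGPATCH8 and 5 of 9 had the same sign there, and of the 78, 49 had the same sign under sgRenilla. Over all events, 403 of 475 and 1365 of 1786 had the same sign. Usage in the 6 P95H libraries did not overlap that in the 6 WT libraries for 26 members (0.493%, against 2.79% of all events).

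COMMD6, an NF-kappaB regulator, was lower in P95H cells in every alternative tried. Its TAGCAG tandem (chr13:76104541-76104544, hg19, minus strand) was used upstream at 22%, 14% and 13% in P95H sgRenilla and 26%, 19% and 21% in P95H sgGPATCH8 libraries. In SRSF2 WT cells it was 32%, 27% and 30% with sgRenilla and 37%, 37% and 33% with sgGPATCH8. All 6 P95H libraries lay below all 6 WT libraries, by 13.5 points (log2 change -1.03, SE 0.17, adjusted p = 0.00752, limma), and the call was kept in all 18 alternative settings. The same tandem ran from 16% to 39.5% in the other panels.

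ANAPC5, a subunit of the anaphase-promoting complex with a CAGCAG tandem at chr12:121783751-121783754 (hg19, minus strand), had 35%, 8% and 19% in P95H sgRenilla and 36%, 36% and 53% in P95H sgGPATCH8 libraries. SRSF2 WT cells had 63%, 68% and 66% with sgRenilla and 56%, 50% and 50% with sgGPATCH8. The difference was 45.0 points with sgRenilla (adjusted p = 0.0274, limma), with no overlap. Under sgGPATCH8 the P95H and WT groups overlapped. In the other panels ANAPC5 ranged from 17% to 75%. IST1, an ESCRT protein with a TAGGAG tandem, had 76%, 50% and 48% in P95H sgRenilla and 46%, 41% and 57% in P95H sgGPATCH8, against 78%, 90% and 81%, and 80%, 69% and 78%, in WT (26.3 points lower, adjusted p = 0.0187). DHX38, a helicase of the second catalytic step, had 77% to 88% in P95H, against 58% to 82% in WT, at its CAGGAG tandem (15.7 points higher, adjusted p = 0.0349). HELZ, another helicase, had 30% to 41% in P95H, against 23% to 30% in WT (6.83 points higher, adjusted p = 0.0334). The P95H and WT ranges of DHX38 overlap. The calls of ANAPC5 with sgRenilla, IST1, DHX38 and HELZ were kept in 6 of 12, 18 of 18, 7 of 18 and 5 of 18 alternative settings.

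The interaction of P95H and sgGPATCH8, the test of whether the GPATCH8 difference differs between P95H and WT cells, called 2 of 5279 members, both lower (0.0379%, against 0.0614% of all events). These were RABL2A and SPTB. RABL2A had 61%, 62% and 61% with sgGPATCH8 in P95H cells, against 95%, 95% and 92% with sgRenilla, and 87%, 83% and 94%, against 79%, 68% and 84%, in WT cells. RABL2A has a near-identical copy, RABL2B, so its reads may be split between them and its values are uncertain. Neither call was kept when any of the 12 libraries was left out, where 0 to 1 members were called.

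U2AF1 S34F, which alters the protein that binds the AG of the 3′ splice site, called 15 of 5152 members averaged over the guide targets, 3 higher and 12 lower (0.291%, against 1.45% of all events), and 3 to 14 when a library was left out. With sgRenilla alone limma called none (0.00230% of all events), with 327 members at an unadjusted p under 0.05 (6.35%, against 9.32% of all events), and with sgGPATCH8 alone none (0.0230%), with 380 under 0.05 (7.38%, against 11.6%). With a replicate block, 44 members were called averaged over the guide targets, all 15 among them, and 12 with sgGPATCH8 alone. The labels tie these libraries only by number, and the shares over all events under that block are not given here. Usage in the 6 S34F libraries did not overlap that in the 6 WT libraries for 14 members (0.272%, against 2.26% of all events). The interaction of S34F and sgGPATCH8 called none (0% of all events), with 309 of 5152 members under 0.05, beside 4.40% of all events. For S34F against WT averaged over the guide targets, pairs 10 to 30 nucleotides apart were called in 22 of 1053 cases (2.09%). Pairs 4 to 9 nucleotides apart were called there in 0 of 682.

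ZSCAN30, a zinc finger protein, had 51%, 58% and 57% in S34F sgRenilla and 79%, 58% and 58% in S34F sgGPATCH8, against 80%, 87% and 79%, and 80%, 87% and 81%, in U2AF1 WT (adjusted p = 0.0273, limma). A single S34F library reached the WT range. DESI2 rose at a pair whose downstream acceptor alone is annotated. It had 47%, 37% and 56% in S34F sgRenilla and 28%, 29% and 42% in S34F sgGPATCH8, against 19%, 15% and 6%, and 18%, 24% and 27%, in WT (21.7 points higher, adjusted p = 0.0369), with no overlap. IKBKG, the regulatory subunit of the IkappaB kinase, had 28% to 74% in S34F, against 78% to 93% in WT (adjusted p = 0.0229), and CDC27, another anaphase-promoting complex subunit, had 80% to 93%, against 43% to 79% (adjusted p = 0.0107). Both genes have near-identical copies in the genome, so these values are uncertain, and IKBKG ran from 52% to 92% in the SRSF2 panel. The calls of ZSCAN30, DESI2, IKBKG and CDC27 were kept in 9, 6, 12 and 18 of 18 alternative settings.

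Members in genes of 5 lists were called in single cases, with few of them tested. Of 12 genes listed for tandem acceptors described earlier, 9 had 39 members, of which 16 to 19 were tested in a panel, with 1 of 19 called, SMARCA4 from the donor at 11144541, lower with sgGPATCH8 in P95H cells (6.33 points, adjusted p = 0.0492, limma), where 4.84% of all events were called. That call was kept in 3 of 12 alternative settings. Of 41 genes for 3′ splice site recognition and the U2 snRNP, 24 had 47 members, of which 15 to 16 were tested, with 2 of 15 called in K700E, SF3B1 and RBM39, both higher, beside 3.35% of all events. Of 16 genes of the second catalytic step, 7 had 12 members, of which 3 to 5 were tested, with 1 of 3 called in P95H, DHX38, which was higher, beside 4.69% of all events. Of 26 SR and hnRNP genes, 12 had 41 members, of which 21 to 25 were tested, with 1 of 25 called in K700E, TRA2A, which was higher, beside 3.35% of all events. Of 35 blood cancer genes, 21 had 55 members, of which 24 to 33 were tested, and none was called in any comparison, beside 0% to 4.84% of all events. The median K700E difference was 2.17 points over the tested members of the tandem list, 4.33 over the 3′ splice site list, -1.33 over the second step list, 1.17 over the SR and hnRNP list and -0.42 over the blood cancer list, beside 0.33 over all tested events.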

How the data were processed

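RNA was sequenced from 44 libraries of K562 and 293T cells as polyadenylated, strand-specific paired-end libraries, per the labels' protocols. The authors deposited, for each event and column, a fraction between 0 and 1, rounded to 2 decimals, for the isoform listed first; this reading rests on the values themselves. The submitters' processing notes name RSEM 1.2.4, Bowtie, TopHat2 2.0.8b and TopHat and hg19 (GRCh37) as the build. What each tool did, and the step from reads to fractions, is not given in the sources used here, so depth is unknown.

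Of 55 listed samples, 54 columns were used. The 2 sequencing runs of each SF3B1 library were averaged. SRSF2 P95H sgGPATCH8 replicate 3 is listed as a pair of runs and has 1 column. In 293T the columns name guides (2 per target), which nothing ties to the titles' WT-1 and WT-2, so the libraries of a target were used together with guides weighted equally.

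Fractions became log2((f + 0.01)/(1 - f + 0.01)) and were fitted per panel with limma 3.58.1 (R 4.3.3), with a mean per group (per guide in 293T) and a trended prior. The fit covered all events with a value in every library, a group mean of at least 5% and one of at most 95%. In 293T the p-values thus measure the spread between libraries of the same guide, not between guides. The fit was checked on simulated data. No count test was made, since the files hold no reads. Tested members numbered 6560 (SF3B1), 5279 (SRSF2), 5152 (U2AF1) and 5753 (293T). Adjusted p-values are Benjamini-Hochberg over all tested events. A group with a lone library took the spread of the rest of its panel, and averages over guide targets weight targets equally.

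Names and sequence come from GENCODE 29 (GRCh38), matched by chromosome, strand, exact intron lengths and a shift shared with neighbours. Coordinates are the files' own, in hg19, and none was converted. Python 3.11.15, pandas 2.3.3 and numpy 2.4.6 were used.

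Members named are those called (the 10 largest where more), the 5 largest that do not overlap in comparisons of 3 or more libraries, the 10 nearest 50%, the 10 largest between the lines and those in 5 lists. Others were chosen after their values were seen. Members and lists were chosen with earlier results of these data known. Alternatives were another offset, no filter on usage, a larger minimum difference, 1 missing value allowed, single runs, a replicate block, each library left out, and, added after seeing the data, a value in all 44 libraries. Some items are not reported here.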

Additional observations from a re-analysis of the deposited data

Results flagged for a closer look

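Among the 4 libraries of a 293T guide target, single libraries stood apart from the other 3 relative to their spread, some by no more than the rounding. With sgSUGP1, KALRN had 13% in 1 library, against 38%, 40% and 40% in the others, and an unnamed pair on chromosome 17 had 54%, against 84%, 84% and 86%. An unnamed pair on chromosome 12 had 50%, against 41%, 41% and 42%, and MAGI1 had 92%, against 97%, 97% and 98%. FOXRED1 had 97%, against 98% in the other 3, and SCAF4 had 92%, against 93% in the other 3, gaps no larger than the rounding of the deposited values. With sgGPATCH8, NFKB1 had 54%, against 76%, 79% and 80%, and USP11 had 98%, against 97% in the other 3. For unrounded, normally spread values, chance alone gives such a gap in about 1 of 20 groups. That rate does not hold where the other 3 rounded values tie, and the number of groups examined is not given here.

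The GPATCH8 difference itself differed between SRSF2 P95H and SRSF2 WT cells for 2 members, by the interaction term of the limma fit. For RABL2A it was -43.67 points (adjusted p = 0.0465), with 61%, 62% and 61% for sgGPATCH8 in P95H cells, against 95%, 95% and 92% for sgRenilla. For SPTB it was -35.67 points (adjusted p = 0.0428), with 54%, 50% and 53% for sgGPATCH8 in P95H cells, against 94%, 95% and 93% for sgRenilla. The RABL2A call was kept in 4 of 18 alternative settings and the SPTB call in 3 of 17, and neither was kept when any of the 12 libraries was left out.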

How the results depend on the processing

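The counts of called tandem acceptors depended on the processing, while no named member changed direction. Of 251 alternative counts, 155 stayed within 1.5 times the main count and 96 did not. Apart from the setting with a value in all 44 libraries, the shares over all events under these alternatives are not given here. Whether members moved with all events or apart from them cannot be read from these counts. Over 132 results for named members, 1064 of 1806 alternatives stayed on the same side of the threshold, 741 lost the call, 1 gained it and 0 reversed the direction. The causes were not tested, except that fewer libraries and more tested events leave less room for calls by construction.

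Without a filter on usage, the count was 97 for K700E averaged over guide targets (182 in the main analysis), 6 for K700E with sgRenilla, 2 and 4 for sgSUGP1 in SF3B1 WT and K700E cells, and 2 and 4 for sgGPATCH8 in the same cells. It was 55 for P95H averaged, 55 for sgGPATCH8 in P95H cells and 7 for the P95H interaction. It was 1 and 2 for S34F with sgRenilla and with sgGPATCH8, 2 and 1 for sgGPATCH8 in U2AF1 WT and S34F cells, and 1 for the S34F interaction. In 293T it was 3 for sgSUGP1 and 1 for sgGPATCH8. With an offset of 0.05 it was 1 for sgGPATCH8 in K700E cells and 1 for S34F with sgGPATCH8. With 1 missing value allowed it was 0 for the P95H interaction and 1 for sgSUGP1 in 293T. Run 1 alone gave 11 for K700E averaged. Run 2 alone gave 28 for K700E averaged, 1 for K700E with sgRenilla and 35 for sgSUGP1 in K700E cells. Of the 182 members called in K700E, 95 were also called without the filter, 10 in run 1 alone and 21 in run 2 alone.

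With members restricted to a value in all 44 libraries, chosen after seeing the data, the count was 1 and 4 for sgSUGP1 in SF3B1 WT and K700E cells, 2 for sgGPATCH8 in K700E cells, 59 for P95H averaged, 3 for sgGPATCH8 in SRSF2 WT cells and 61 for sgGPATCH8 in P95H cells. In each of these the share of members called lay below that of all events. Leaving out 1 library gave 21 to 57 for K700E averaged, 51 to 76 for P95H averaged, 1 to 6 for P95H with sgRenilla and 22 to 50 for P95H with sgGPATCH8. It gave 0 to 4 for sgGPATCH8 in SRSF2 WT cells, 41 to 58 in P95H cells, 0 to 1 for the P95H interaction, 3 to 14 for S34F averaged, 0 to 1 for S34F with sgGPATCH8 and 1 throughout for sgGPATCH8 in U2AF1 WT cells. K700E with sgRenilla has 1 library a group and none could be left out.

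The replicate block gave 74 calls for K700E averaged, 1 for P95H with sgRenilla, 3 for sgGPATCH8 in SRSF2 WT cells, 0 for the P95H interaction, 44 for S34F averaged and 12 for S34F with sgGPATCH8. In the SF3B1 panel, K700E and WT libraries of a guide target with the same number share a guide, and deviations of same-numbered libraries, those of the other target included, correlated by -0.005 to 0.018. In the SRSF2 and U2AF1 panels libraries with the same number share only that number in the labels. Their deviations correlated by -0.048 to 0.033 in the SRSF2 panel and by 0.075 to 0.402 in the U2AF1 panel, where 12 of 12 libraries correlated best with their own number, a hint from the data and not the design.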
